A study of Mus musculus with 2 samples.

Results

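A set of 40 listed genes of synaptic vesicle exocytosis was examined in N2A cells, a mouse neuroblastoma line, with and without knockdown of Ptbp1. The list, of 40 among 33924 annotated genes, holds SNARE proteins and their partners: the syntaxins Stx1a, Stx2, Stx3, Stx6, Stx7 and Stx16, the SNAP-25 family members Snap23, Snap25 and Snap29, the vesicle-associated membrane proteins Vamp1, Vamp2, Vamp3, Vamp4 and Vamp7, regulators of their assembly, vesicle proteins, Rab GTPases and exocyst subunits. Genes were listed by name, but the list was chosen with earlier results of these data known. The exons were all those of the SpliceTrap exon database that lay within a listed gene's span on its strand in mm9 and whose exon trio, the exon with both its neighbours, had at least 20 reads in each library. This gave 355 exons in 34 genes, of 120032 exons in all. The measures were the percent spliced in (PSI), which is the share of transcripts that include an exon, and the amount of RNA of each gene.

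The control cells were transfected with a control shRNA and the other cells with an shRNA against Ptbp1, labelled shptbp1, and both were cultured in plates for 3 days afterwards. Cells were transfected with Lipofectamine in suspension, and any cells that took up no plasmid were sequenced with the rest. Each condition was 1 strand-specific library of poly(A) RNA, read as pairs of 100 bases, so no difference below has a replicate check, and intervals cover counting error only. Junction reads summed to 74382387 in the control and 58295142 in the knockdown. Gene levels are given as junction RPM, the reads on a gene's junctions per 1000000 junction reads of the library. Ptbp1, the targeted gene, had 546 junction RPM in the control and 183 in the knockdown, a log2 ratio of -1.57. Its paralog Ptbp2 had 76.4 and 184 junction RPM, a log2 ratio of 1.27. N2A markers were present, with Chgb at 311 and 330 junction RPM and Tubb3 at 219 and 207, whereas Nefl and Nefm had 3 or fewer junction reads in either library. Markers of astrocytes summed to 8 junction reads in the control and 5 in the knockdown, and those of microglia or macrophages to 19 and 23, all of them from Cd68. The oligodendrocyte marker Mbp had 16 and 12 and Mog 0 and 1. Endothelial markers summed to 249 and 250, nearly all Pecam1, and fibroblast ones to 42 and 111, against 67742 and 54143 for the neuroblastoma and neuronal list. In bulk RNA, fewer cells of a type and less RNA per cell cannot be told apart.

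Synaptic vesicles fuse when a vesicle SNARE such as Vamp2 zips together with the plasma membrane SNAREs Stx1a and Snap25. Munc18 and Munc13 proteins template and prime this complex, complexins and the calcium sensor synaptotagmin couple it to calcium entry, and Nsf with its SNAP adaptors takes it apart for reuse. Ptbp1 is an RNA-binding protein that recognises pyrimidine-rich RNA and represses many exons in cells that are not neurons.

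Of the 355 exons, 10 had a PSI at least 5 points higher in the knockdown with the 95% Newcombe interval from junction reads above 0, and 2 had one at least 5 points lower with the interval below 0. Over all exons, 0.796% met the first rule and 0.736% the second. Among the 47 listed exons with a PSI between 5 and 95 in either library, the share higher was 21.3%, beside 7.74% of all such exons, and the share lower was 4.26%, beside 7.17%. The 12 exons that passed either rule lay in 8 genes, Exoc1, Exoc7, Unc13a, Rims2, Snap23, Stx16, Stxbp2 and Rab3b. By the two-sided Fisher's exact test on junction reads of the pair of libraries, adjusted over all 120032 exons, 6 of the 10 higher exons and 1 of the 2 lower ones had an adjusted p under 0.05. In this test 6 listed exons were higher and 2 lower, where 0.355% of all exons were higher and 0.262% lower. The eighth exon, in Syt1, changed by less than 5 points.

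The short exons of Exoc1, Unc13a, Rims2, Exoc7 and Snap23 carry this result, so each is shown with the 80 nucleotides of intron before it. The sequences are from the NCBIM37 assembly, which is mm9, 5′ to 3′ on the gene's strand, with the exon in capitals. The 21-nt exon of Exoc1 lies at chr5:76969772-76969792 on the plus strand, the 30-nt exon of Unc13a at chr8:74190540-74190569 on the minus strand, the 66-nt exon of Rims2 at chr15:39349352-39349417 on the plus strand, the 93-nt and 39-nt exons of Exoc7 at chr11:116158885-116158977 and chr11:116154589-116154627 on the minus strand, and the 93-nt exon of Snap23 at chr2:120416558-120416650 on the plus strand.
Exoc1 21 nt: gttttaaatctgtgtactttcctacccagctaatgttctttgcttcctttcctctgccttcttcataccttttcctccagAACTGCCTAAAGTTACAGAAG
Unc13a 30 nt: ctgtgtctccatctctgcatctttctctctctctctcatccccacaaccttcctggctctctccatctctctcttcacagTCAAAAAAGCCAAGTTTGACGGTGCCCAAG
Rims2 66 nt: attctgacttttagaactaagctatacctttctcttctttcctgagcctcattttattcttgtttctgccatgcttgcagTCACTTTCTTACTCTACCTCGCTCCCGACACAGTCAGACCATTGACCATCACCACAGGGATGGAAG
Exoc7 93 nt: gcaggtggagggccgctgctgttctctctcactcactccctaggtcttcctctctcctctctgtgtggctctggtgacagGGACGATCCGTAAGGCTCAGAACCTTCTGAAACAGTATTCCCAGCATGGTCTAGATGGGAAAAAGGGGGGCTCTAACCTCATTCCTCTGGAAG
Exoc7 39 nt: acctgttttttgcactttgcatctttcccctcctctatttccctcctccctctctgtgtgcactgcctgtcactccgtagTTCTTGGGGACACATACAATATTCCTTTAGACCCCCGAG
Snap23 93 nt: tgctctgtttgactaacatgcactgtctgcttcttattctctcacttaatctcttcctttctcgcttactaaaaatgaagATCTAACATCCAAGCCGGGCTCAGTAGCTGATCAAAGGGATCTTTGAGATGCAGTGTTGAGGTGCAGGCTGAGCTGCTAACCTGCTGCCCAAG

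All 6 exons follow an AG and precede a GT, and the length of each is a multiple of 3. The exons of Exoc1, Unc13a and Exoc7 lie within annotated coding sequence in GENCODE vM1. The Rims2 exon has no coding annotation there, and the Snap23 exon is annotated in a transcript of the nonsense-mediated decay class.

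The exocyst is the complex of subunits that tethers secretory vesicles to the plasma membrane before SNAREs act. The 21-nt exon of Exoc1, its Sec3 subunit, had a PSI of 8.3 in the control and 70.4 in the knockdown, a rise of 62.1 points. Junctions into and out of this exon held 16 and 7 control reads, against 217 on the junction that skips it, while in the knockdown they held 135 and 38 against 59. The exon went from mostly skipped to mostly included, the largest change among the 355 exons. Junction PSI, the mean of both inclusion junctions over that mean plus skipping, was 5.03% and 59.5%, a difference of 54.4 points (95% Newcombe interval 45.5 to 62.3, two-sided Fisher's exact test adjusted p = 1.42e-28). A second Exoc1 exon of 45 nt at chr5:76986844-76986888 had a PSI of 74.8 in the control and 84.8 in the knockdown. Its interval, 0.64 to 22.9 points, ended just above 0, and its adjusted p by the same exact test was 1.0.

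In Exoc7, the Exo70 subunit that binds the plasma membrane, 2 exons were more included in the knockdown. The 93-nt exon had a PSI of 53.2 in the control and 80.7 in the knockdown. Its reads were 158 and 163 on inclusion junctions against 131 on skipping in the control, and 254 and 221 against 47 in the knockdown (difference of junction PSI 28.4 points, interval 21.1 to 35.3, exact test adjusted p = 5.88e-11). The 39-nt exon had a PSI of 66.8 and 90.0. Its inclusion junctions had 168 and 16 reads against 69 in the control and 238 and 15 against 22 in the knockdown (28.0 points, interval 18.1 to 37.2, exact test adjusted p = 2.23e-05). Its junction PSI rests mainly on 1 of both inclusion junctions, the other having 16 and 15 reads. Another Exoc7 exon, of 70 nt, had a PSI of 88.4 and 87.1, so the gene's exons did not all move.

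Unc13a encodes Munc13-1, which primes vesicles by opening syntaxin. Its 30-nt exon had a PSI of 47.1 in the control and 86.4 in the knockdown, a rise of 39.3 points. The control had 57 and 11 inclusion reads against 62 for skipping, and the knockdown 163 and 22 against 25 (43.3 points, interval 30.4 to 54.2, exact test adjusted p = 8.67e-08). Of the other 41 Unc13a exons measured, 3 had a PSI between 5 and 95. An exon of 546 nt had 90.2 and 99.9 with an interval of junction PSI from -1.53 to 5.25, an alternative 5′ splice site of 3 nt had 86.2 and 83.4, and one of 15 nt had 20.7 and 23.6.

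Rims2 encodes an active zone scaffold that binds Rab3 on vesicles and Munc13, and it was the listed gene with the most variable exons, 6 of 29. Its 66-nt exon had a PSI of 4.2 in the control and 33.9 in the knockdown. The reads were 5 and 4 against 128 in the control and 38 and 22 against 76 in the knockdown (24.9 points, interval 15.9 to 34.3, exact test adjusted p = 1.08e-05). A 78-nt exon farther downstream, at chr15:39441610-39441687, moved the other way, from 42.5 to 31.6, with 73 and 159 reads against 180 in the control and 61 and 74 against 153 in the knockdown. The interval of that fall, -16.6 to -0.23 points, ended close to 0, and its adjusted p by the exact test was 1.0. The exon after the 66-nt exon, 180 nt long at chr15:39366384-39366563, gave a result that turned with the neighbours chosen. With the exon before the 66-nt exon as its neighbour its PSI was 46.6 and 54.3 (interval -3.17 to 14.1 points). With the 66-nt exon itself as its neighbour it was 95.9 and 77.5 (interval -29.9 to -9.31 points), from 4 skipping reads in the control and 22 in the knockdown. Transcripts that joined the 66-nt exon directly to the exon beyond the 180-nt exon were thus counted more often in the knockdown. The other variable Rims2 exons differed by less: one of 33 nt had 99.9 and 94.3 (interval -21.8 to 0.40), one of 209 nt had 90.8 and 85.9, and one of 69 nt had 93.3 and 96.1.

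Snap23 is the SNAP-25 family member of most tissues outside the nervous system. Its 93-nt exon, the one annotated in a transcript subject to nonsense-mediated decay, had a PSI of 0.9 in the control and 15.7 in the knockdown. Inclusion junctions had 2 and 3 reads against 354 for skipping in the control, and 32 and 31 against 160 in the knockdown (15.8 points, interval 10.9 to 21.7, exact test adjusted p = 9.02e-11). Snap23 also had the lowest junction read ratio of the listed genes, 29.1 junction RPM in the control and 21.9 in the knockdown (log2 ratio -0.41, exact 95% interval -0.51 to -0.31). Whether the exon had a part in that level was not tested. Other variable Snap23 exons, all near the start of the gene and outside annotated coding sequence, changed by 2.7 points or less, such as the 100-nt exon with a PSI of 13.8 and 11.1.

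Stx16, a syntaxin of the trans-Golgi network, had exons on both sides. A coding exon of 166 nt, at chr2:173917903-173918068, had a PSI of 69.4 in the control and 58.5 in the knockdown, the largest fall that passed the rule together with that of the Rims2 78-nt exon. Its reads were 425 and 581 against 190 in the control and 287 and 397 against 212 in the knockdown (fall of junction PSI with an interval of -16.1 to -5.61 points, exact test adjusted p = 0.0118). An alternative 5′ splice site that adds 51 nt, at chr2:173902640-173902690, had a PSI of 47.0 and 59.4 (interval 1.09 to 22.8, exact test adjusted p = 1.0). With a 12-nt exon as its downstream neighbour the same site had 99.9 in both libraries, and the mean over both trios differed by 6.2 points. That 12-nt exon had 88.9 and 92.2, one of 144 nt 95.9 and 93.3, and a 9-nt alternative 3′ splice site 13.7 and 16.8, each with an interval that held 0.

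Stxbp2 encodes Munc18-2, which binds syntaxins during secretion from cells other than neurons. An alternative 3′ splice site that adds 3 nt, at chr8:3641895-3641897, had a PSI of 15.8 in the control and 35.3 in the knockdown, from 6 reads against 31 and 18 against 26 (interval 4.76 to 41.7, exact test adjusted p = 1.0). In Rab3b, a vesicle GTPase, the 125-nt exon had 58.9 and 99.9, but from 1 and 2 inclusion reads against 2 in the control and 8 and 5 against 0 in the knockdown. Its interval, 2.75 to 89.4 points, excluded 0 while the exact test did not (unadjusted p = 0.133).

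**Figure D1:**
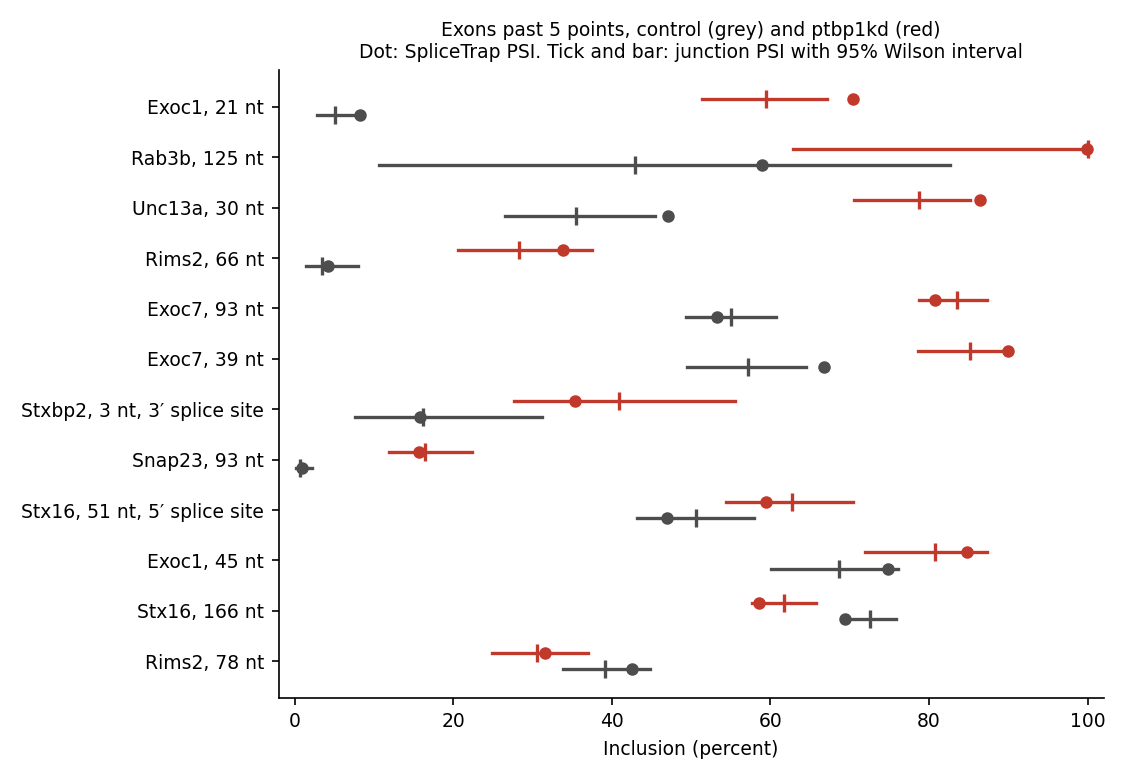
Inclusion in percent of the 12 exons that passed the rule, by library. Dots are the SpliceTrap PSI, ticks the junction PSI and bars its 95% Wilson interval; the exons of Exoc1 (21 nt), Unc13a, Rims2 (66 nt), both of Exoc7, that of Snap23 and that of Stx16 with 166 nt have bars of control and ptbp1kd that do not overlap.

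Past 5 points without the condition on the interval there were 17 exons higher and 8 lower, where 2.64% and 2.56% of all exons were. The 13 of these exons whose interval held 0 differed in their junction reads. Some, such as those of Syt11 and Rab3a, had few on any junction. Others had many inclusion reads but a small change of junction PSI. That change was 2.3 points for Syp, 1.0 for the 546-nt exon of Unc13a and 1.8 for the 118-nt exon of Snap25. In Syn1, which tethers vesicles to actin, the 592-nt exon had a PSI of 33.6 and 58.2, yet its skipping junction had 2 reads in the control. In Syp, synaptophysin, the 331-nt exon had 84.2 and 94.8 (interval -0.29 to 4.97). In Syt11, a synaptotagmin that lacks calcium binding, the 283-nt exon had 57.6 and 80.6, while its junction PSI was lower by 4.63 points in the knockdown. That exon lies outside coding sequence, upstream of the principal Syt11 transcripts. In Vamp1, the 52-nt exon had 99.9 and 91.0 and the intron behind it, scored as retained, 78.1 and 70.3. In Rab27a, a GTPase of secretory granules, the 149-nt exon before the coding sequence had 16.7 and 10.5 (interval -17.2 to 0.54). In Rab3a, which marks synaptic vesicles, 3 small splice site choices of 5, 1 and 25 nt outside the coding sequence had 49.4 and 62.7, 8.3 and 0.1, and 19.2 and 11.2, all from 20 or fewer reads on either junction. By junction reads, none of these differences exceeded counting error.

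Other variable exons of the pathway differed by less than 5 points. The exon of 60 nt in Stxbp5, tomosyn, a SNARE inhibitor, had a PSI of 52.8 and 56.2. Those of 48 nt in Nsf and 47 nt in Napb, the beta-SNAP adaptor, had 12.2 and 11.5, and 90.1 and 93.8. The 83-nt alternative site in Stx1a had 7.6 and 8.7. The 80-nt exon of Syt1, the main calcium sensor of fast release, had 7.3 and 10.0, and the 3-nt alternative site of Syt11 had 89.7 and 90.9 with 653 and 562 inclusion reads. The 9-nt alternative site of Syt1 had 99.9 and 97.9, from 1 shorter-form read in the control and 17 in the knockdown (interval -3.22 to -0.97, exact test adjusted p = 0.0302). A change of this size passed the test because more than 700 reads lay on its junction in each library. No variable exon was measured in 20 listed genes, among them Vamp2, Vamp3, Vamp4, Syn2, Sv2a, Cplx1, Cplx2 and Napa.

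Of the 10 higher exons, 8 were exons that can be skipped, 1 was an alternative 3′ splice site and 1 an alternative 5′ splice site. Among listed exons that can be skipped, are variable, and are 100 nt or less in multiples of 3, a class formed after these values were seen, 7 of 13 were higher and 1 lower, where in the same class over all genes 19.8% were higher and 10.0% lower. Of the 21 other variable skipping exons of the listed genes 1 was higher and 1 lower, where over all genes 5.28% were higher and 7.99% lower. The higher variable skipping exons over all genes numbered 335 in the short class and 375 outside it, beside 7 and 1 in the listed genes.

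**Figure D2:**
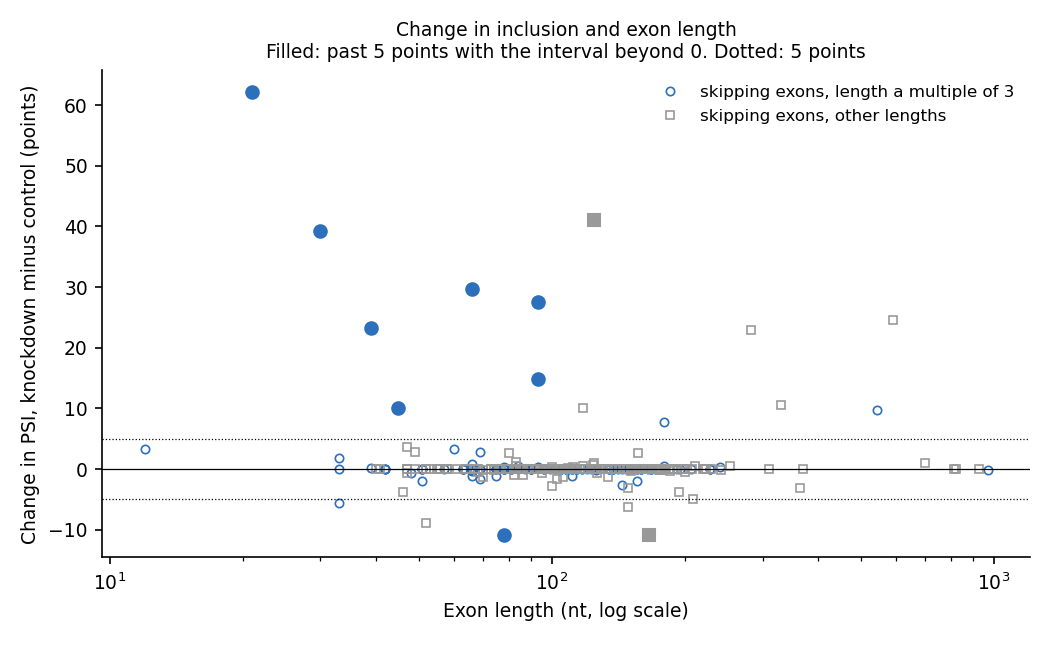
Change in PSI (knockdown minus control, points) against exon length (nt, log scale) for the listed genes' exons that can be skipped. Filled marks passed 5 points with the interval beyond 0; 6 of the filled blue circles of 100 nt or less lie above 10 points, while most exons lie on the 0 line.

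Ptbp1 favours pyrimidines, so the upstream introns were read for triplets of C and T alone. In the 250 nucleotides before the exon, the 8 higher exons that can be skipped had a median of 24.6% such triplets, beside 18.5% over 113619 exons and also over the 8776 variable ones. The Unc13a exon, whose upstream sequence is shown above, had 49.2%, more than 99.8% of all exons. The Exoc7 39-nt exon had 28.6% (above 93.1% of all), that of Snap23 25.8%, the Rims2 66-nt exon 25.4%, the Exoc1 21-nt exon 23.8%, and the Exoc7 93-nt exon 21.4% (above 68.1%). The Exoc1 45-nt exon had 19.0% and the Rab3b exon 17.7%, near the median, and both lower exons were under it, Rims2 78 nt with 16.9% and Stx16 166 nt with 15.7%. On the gene's strand, CTCTCT stood in the windows of 3 of the 8, Unc13a and both Exoc7 exons, and in 15.4% of all windows. TCTT stood in all 8 and in 81.4% of all windows. These are descriptions of letters, and binding was not measured here.

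Snap25, the SNARE of the presynaptic plasma membrane, has an alternative pair of 118-nt exons known as 5a and 5b, of which the embryonic brain uses mainly 5a and the adult brain mainly 5b. They lie at chr2:136595479-136595596 and chr2:136595793-136595910 and are shown, in mm9 on the plus strand, with capitals where they differ, at 31 of 118 bases.
Snap25 exon 5a: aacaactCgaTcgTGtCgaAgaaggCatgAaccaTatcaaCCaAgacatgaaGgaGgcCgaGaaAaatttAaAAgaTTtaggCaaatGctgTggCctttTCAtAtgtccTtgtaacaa
Snap25 exon 5b: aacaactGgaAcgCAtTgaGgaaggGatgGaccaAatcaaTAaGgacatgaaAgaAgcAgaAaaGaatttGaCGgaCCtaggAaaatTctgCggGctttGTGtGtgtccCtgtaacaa

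The exon database held 5b alone, so reads that run into 5a had no junction of their own to be counted on. The junction from exon 4 to 5b had 29 reads in the control and 387 in the knockdown (log2 ratio 4.09 scaled to all junction reads, exact 95% interval 3.54 to 4.69). The junction from 5b to exon 6 had 223 and 866 (2.31, interval 2.09 to 2.53), and the one from exon 3 to the short exon 4 had 91 and 328 (2.20, interval 1.86 to 2.55). Both junctions of 5b thus differed in their control reads, 29 against 223. The last bases of 5a and 5b are the same, and whether reads from 5a to exon 6 were counted on 5b was not tested. Exon 4 is 49 nt long and reads were of 100 bases, so a read from exon 3 through exon 4 can run into 5a. Whether this lowered the count from exon 3 to 4 was not tested. The remaining junctions changed less, with 740 and 947 reads from exon 1 to 2 (0.71), 950 and 1362 from 6 to 7 (0.87), and 1426 and 1758 from 7 to 8 (0.65, interval 0.55 to 0.76). The intervals of the junctions at 5b and of that from 3 to 4 lay above those of the others. In the deposited transcript models, the model with 5a had a mean depth of 420 reads per base in the control and 302 in the knockdown. The model with 5b had 1038 and 1405, so that it held 71.2% and 82.3% of their summed depth. These depths are means over whole models, not counts of reads on 5a or 5b. By junction reads 5b stood lower, with 29 and 387 into it and 223 and 866 out of it. The junction from exon 2 to 3 had 991 and 1260, and that from 6 to 7 had 950 and 1362. The reason for this difference was not tested. The database scored 5b as a constitutive exon, with a PSI of 88.5 and 98.5. The 5a model held less of the last exon than the 5b model in both libraries, and the part of this in the depths was not tested. The Snap25 comparison was chosen after the values were seen.

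**Figure D3:**
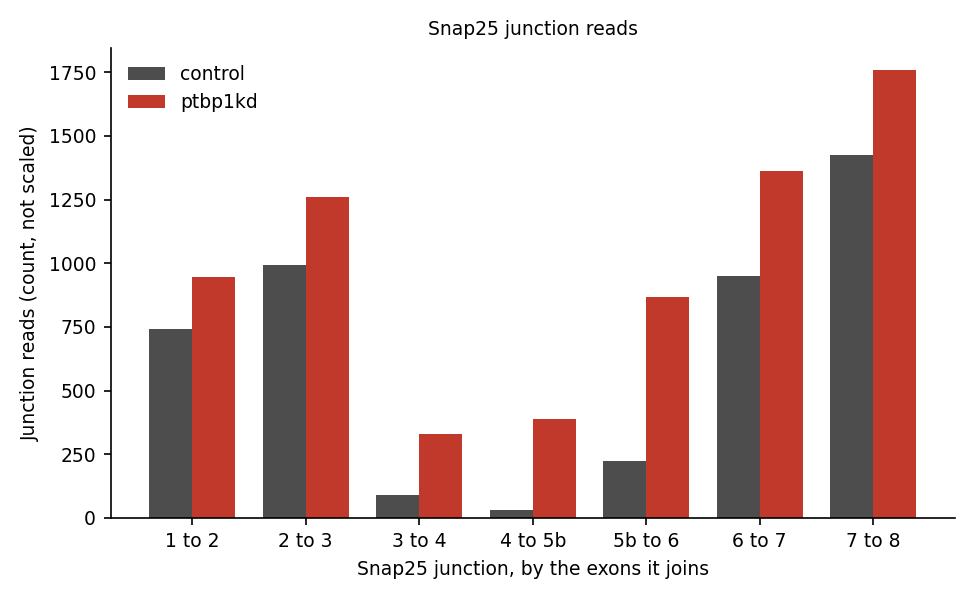
Reads on each Snap25 junction (counts, not scaled to library size) in the control (grey) and ptbp1kd (red), by the exons joined. The bars from exon 4 to 5b go from 29 to 387, while those from 7 to 8 go from 1426 to 1758.

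RNA of the listed genes was measured first from the depth of their RefSeq isoforms scaled to the library total. Of 30 genes with at least 20 read pairs and a depth above 0 in both libraries, 6 were at least 1.5-fold higher and 3 at least 1.5-fold lower, beside 21.5% and 10.9% of all genes, shares near those of the list. Their median log2 ratio was 0.08, as was that of all 10902 genes. Cufflinks built transcripts separately in each library and split reads between RefSeq and newly built isoforms, and the RefSeq share of depth differed between the libraries for many listed genes. Reads on the annotated junctions of each gene, a measure added after the values were seen, do not depend on that split. By junction reads, 10 of 34 genes were at least 1.5-fold higher and 0 lower, beside 21.1% and 1.66% of all genes, with a median of 0.30 on the log2 scale, where that of all 11726 genes was 0.19. Ratios below are of junction RPM with exact 95% counting intervals, unless RefSeq depth is named.

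Of the SNAREs that act at the synaptic vesicle and its target membrane, Vamp2, Vamp1 and Snap25 passed 1.5-fold by both measures and Stx1a did not. Vamp2, the vesicle SNARE of fast release, had 10.9 junction RPM in the control and 41.3 in the knockdown, 3.80-fold higher (log2 ratio 1.93, interval 1.81 to 2.04). By RefSeq depth its log2 ratio was 1.51, so both measures placed it past 1.5-fold. Vamp1, its close relative in spinal cord and brainstem, had 2.38 and 4.72 (0.99, interval 0.71 to 1.27), with 0.63 by RefSeq depth. Snap25 had 59.9 and 119 (0.99, interval 0.93 to 1.04), with 0.70 by RefSeq depth. The increase in its summed junctions includes those at exon 5b. Stx1a, their partner on the plasma membrane, had 52.6 and 71.6 (0.44, interval 0.38 to 0.51). Its RefSeq depth gave a log2 ratio of -1.48, while RefSeq isoforms held 80.3% of the isoform depth in its span in the control and 21.4% in the knockdown.

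None of the other SNAREs measured was 1.5-fold higher or lower by junction reads. Vamp3, cellubrevin of recycling endosomes, had 57.5 and 49.3 junction RPM (-0.22, interval -0.29 to -0.16), and Vamp4 of the trans-Golgi network had 39.9 and 52.2 (0.39). Snap29 had 12.5 and 16.2 (0.38). Among the syntaxins, Stx7 of late endosomes had 67.4 and 88.7 (0.40), Stx6 of the trans-Golgi network 30.0 and 35.7 (0.25), Stx2 of the plasma membrane 30.1 and 34.6 (0.20) and Stx16 59.1 and 62.2 (0.07). RefSeq depth gave -1.06 for Vamp3 and -1.05 for Stx6, the other genes it placed at least 1.5-fold lower. For these the RefSeq share of the span's depth went from 99.9% to 58.2% and from 92.1% to 42.9%. Stx3, a syntaxin of apical membranes, had 2 and 5 junction reads, and Vamp7 had no annotated span in GENCODE vM1 and was listed at a depth of 0 in both libraries.

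Of the regulators of SNARE assembly, Stxbp2 had 8.56 and 13.3 junction RPM (0.63, interval 0.48 to 0.79) and a RefSeq ratio of 1.83, with a RefSeq share of 29.2% and 68.1%. Stxbp5 had 77.6 and 86.5 (0.16). The complexins, which clamp and promote fusion, were not higher by 1.5-fold: Cplx1 had 68.8 and 57.9 (-0.25, interval -0.31 to -0.19) and Cplx2 3.85 and 4.05 (0.07, interval -0.18 to 0.33). Unc13a had 112 and 178 (0.67, interval 0.63 to 0.71), with 0.20 by RefSeq depth. Its RefSeq share was 99.5% in the control and 100% in the knockdown. The depth of all isoforms in its span also gave 0.20, so both depth measures were below the junction ratio. Rims2 had 116 and 113 (-0.04). Rims1, Unc13b, Cadps and Cadps2, the last pair being priming factors for dense-core vesicles, were at or near the detection limit with 1 and 0, 2 and 3, 5 and 15, and 0 and 0 junction reads. The Cadps ratio, 1.94, thus rests on 20 reads (interval 0.40 to 3.75).

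Of the disassembly machinery, Nsf and Napb passed 1.5-fold by junction reads and Napa did not. Nsf, the ATPase that takes SNARE complexes apart, had 176 and 281 junction RPM (0.67, interval 0.64 to 0.70), with 0.22 by RefSeq depth. Napb had 20.7 and 38.5 (0.90, interval 0.80 to 0.99), although its RefSeq isoform was listed at 0 in the knockdown. Napa, alpha-SNAP, had 41.3 and 52.0 (0.33), with 0.82 by RefSeq depth and a RefSeq share of 61.3% and 95.5%.

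Among vesicle proteins, Sv2a, a transporter-like glycoprotein, differed most, with 25.5 and 55.5 junction RPM, 2.18-fold higher (1.12, interval 1.04 to 1.20), with 0.32 by RefSeq depth. Syp had 24.6 and 23.9 (-0.04, interval -0.15 to 0.06) and Syn2, which like Syn1 coats vesicles, 156 and 153 (-0.02, interval -0.06 to 0.02). Syn1 had 20.3 and 24.4 (0.27). Sv2b had 0 junction reads in both. Of the synaptotagmins, Syt1 had 86.1 and 115 (0.42, interval 0.38 to 0.47), Syt4 27.6 and 32.6 (0.24) and Syt11 21.5 and 25.2 (0.23), none of them 1.5-fold higher. Of the Rab GTPases, Rab27a had 9.51 and 12.9 (0.44) and Rab3a 8.83 and 10.2 (0.20). Rab3b rested on 5 and 17 reads (2.12, interval 0.62 to 3.91). The exocyst subunits whose exons changed most had little change in RNA, with 53.3 and 58.7 for Exoc1 (0.14, interval 0.07 to 0.20) and 91.2 and 104 for Exoc7 (0.19, interval 0.14 to 0.24).

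**Figure D4:**
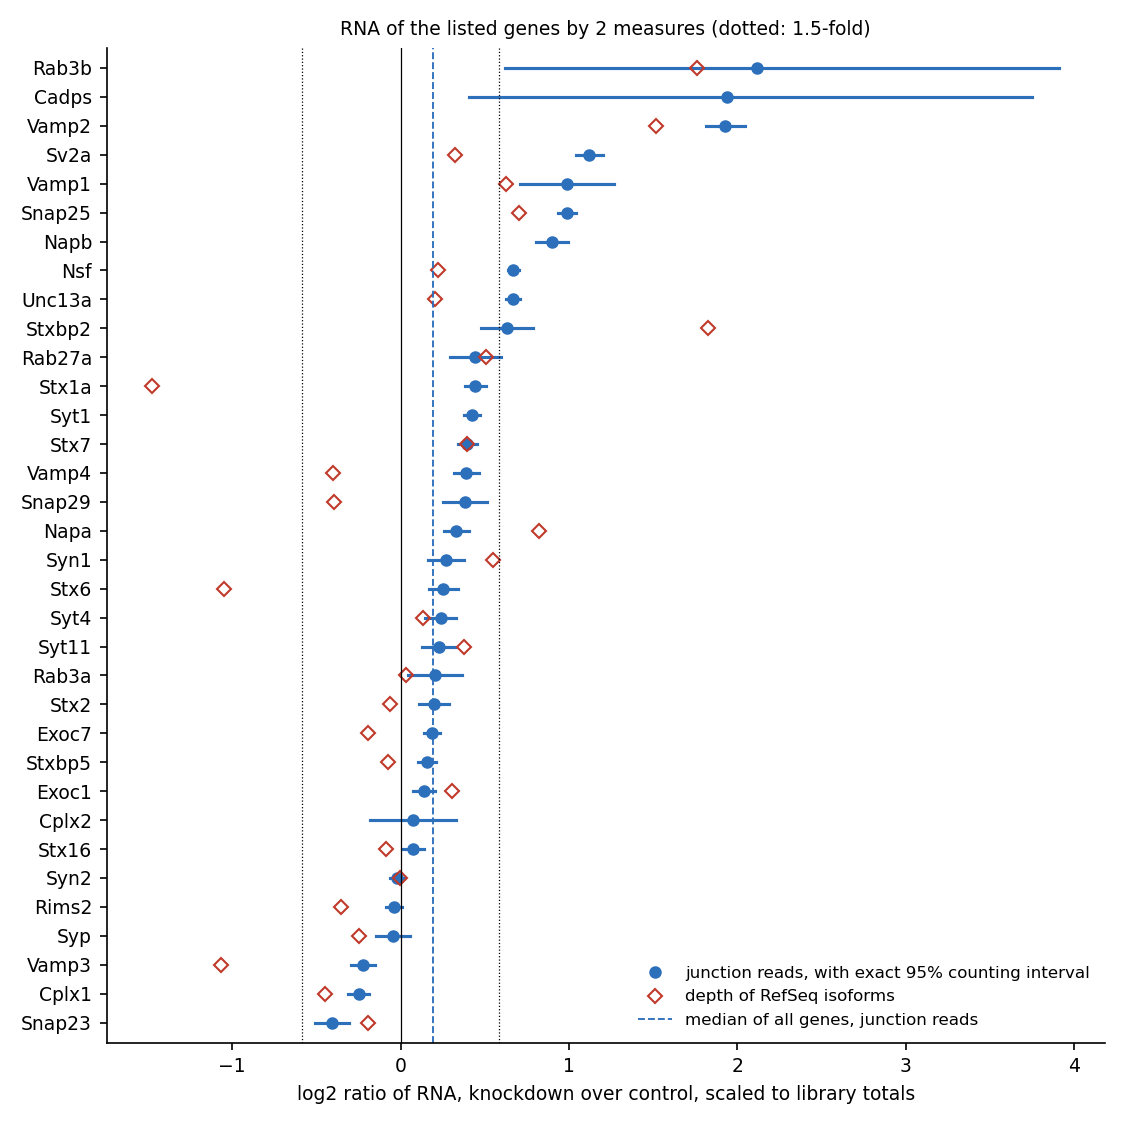
Log2 ratio of RNA, knockdown over control, for the 34 listed genes with at least 20 junction reads. Blue dots with exact 95% counting intervals are junction reads, open red diamonds the RefSeq isoform depth, and the dashed line the all-gene median of 0.19; Vamp2 has both marks above 1.5, while the marks of Stx1a lie on opposite sides of 0.

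The gap between both measures is set out beside the change in the RefSeq share of a gene's depth. Both quantities contain the same RefSeq depth, so a relation between them is partly built in. For Stx1a the share was lower by 58.9 points in the knockdown and the RefSeq ratio was below the junction ratio by 1.92 on the log2 scale. For Stx6 the gap was -1.30 with a share change of -49.1 points, and for Stxbp2 1.19 with 38.9 points. Rab3a had a share change of -41.9 points with a gap of -0.17, Syn1 40.8 points with 0.28, and Vamp4 -10.6 points with -0.79.

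**Figure D5:**
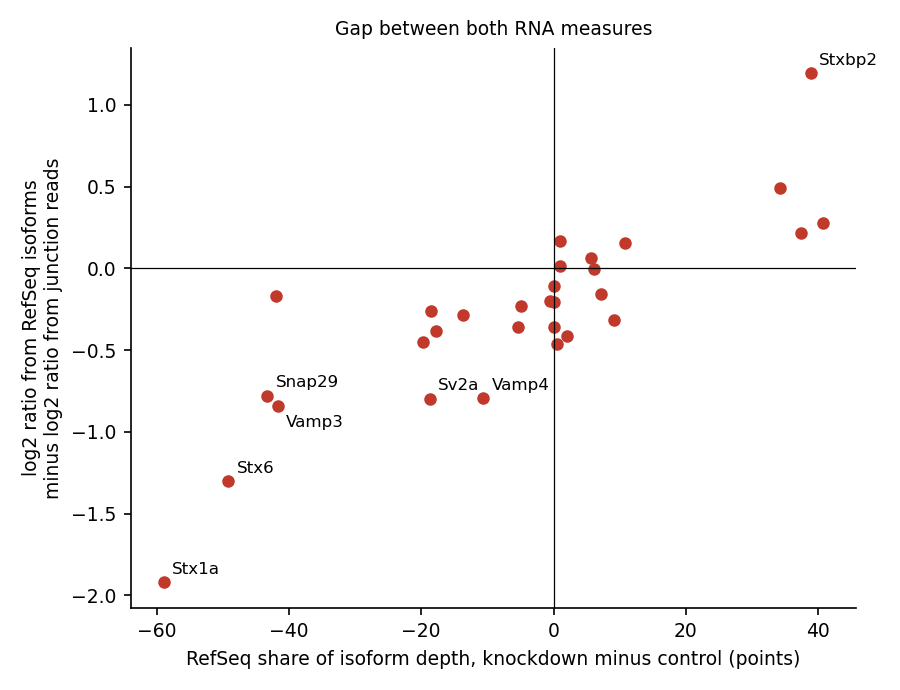
RefSeq-based log2 ratio minus junction-based log2 ratio against the change, in points, of the RefSeq share of isoform depth in the gene's span, 1 dot per listed gene. Stx1a lies at -58.9 points and -1.92, and Stxbp2 at 38.9 points and 1.19.

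A further list of 73 genes of the same pathway gave shares like those of all genes by RefSeq depth: of 39 measured, 7 were at least 1.5-fold higher and 5 at least 1.5-fold lower. By junction reads 15 of 52 were higher and 1 lower, beside 21.1% and 1.66% of all genes, with a median log2 ratio of 0.29 beside 0.19 for all genes. At least 2-fold with 200 or more read pairs by RefSeq depth were Scamp5, a secretory carrier membrane protein (log2 ratio 1.54, and 1.02 by junction reads), Rab3c, a Rab3 paralog (1.20, and 0.47), and Syn3, a synapsin (1.19, and 0.94). Exoc6, another exocyst subunit, was the 1 gene lower by junction reads, with 5032 and 2454 (-0.68, interval -0.76 to -0.61), and it had -0.80 by RefSeq depth.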

How the data were processed

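In all 2 libraries were analysed, 1 per condition, grouped by their labels. The authors ran SpliceTrap on read pairs mapped to its mm9 exon trios and deposited a fraction per trio, the inclusion ratio with and without SpliceTrap's correction, the count of reads on each junction, and coverage (signal) in reads per 100 nucleotides. Per the labels, reads were also processed with CASAVA, TopHat and Cufflinks on mm9, whose versions are not given in the sources used here. The authors deposited FPKM and mean depth (coverage) of genes and isoforms, and transcript models whose score was not used and whose exons were read for Snap25 alone.

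From these files, PSI was the corrected ratio in percent, for the trio with most reads of each exon. Reads on a trio were coverage times length over 100. Junction PSI took the mean of both inclusion junctions, or the larger one for alternative splice sites and retained introns. Differences of junction PSI had 95% Newcombe intervals, and inclusion and skipping counts were compared by two-sided Fisher's exact tests with Benjamini-Hochberg adjustment over all exons, which compare the libraries and not the conditions. RefSeq read pairs were depth times length over 200, summed per gene symbol, and genes at 0 in either library were not tested. Of 27601 RefSeq isoforms 1129 had no symbol. A gene's junction reads were summed over distinct junctions in its GENCODE vM1 span and strand. The span's isoform depth took isoforms within 2000 bases of the span. The 355 exons had a median of 771 and 776 trio reads in the control and knockdown.

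The members and lists were chosen with earlier results of these data known. Named were all 40 genes, the exons past 5 points, then each gene's exons with a PSI of 5 to 95 and smaller changes, and other pathway genes changed 2-fold with at least 200 read pairs; Exoc6 and the Syt1 9-nt site were named after their values were seen. Some genes of these lists are not reported here. Junction reads per gene, all isoforms in the span and the larger inclusion junction were alternatives chosen after seeing the data. The intervals were tested on simulated data with counting error alone, for cassette exons with large planted changes. Exons with few junction reads, alternative splice sites and smaller changes were outside that setting. Scripts used SciPy 1.17.1 and matplotlib 3.10.9 in Python 3.11.15, with pandas 2.3.3 for tables and NumPy 2.4.6.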

Additional observations from a re-analysis of the deposited data

How the results depend on the processing

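The 10 higher and 2 lower exons were counted again under other settings. Higher exons numbered 7 to 11 in every setting tried, with 7 for the cassette class alone, and 11 with the larger inclusion junction. Lower exons numbered 2 or 3, except 1 for the cassette class alone, which leaves out the Stx16 exon. All 12 kept their direction and 5 points under the ratio before correction, junction reads alone and the mean over trios. Of the exons whose interval held 0, the Rims2 exon of 180 nt turned to -5.3 points as a mean over trios, and the Rab3a site of 25 nt and the Syt11 exon of 283 nt turned to 2.2 and -4.6 points by junction reads alone.

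Genes with higher RNA numbered 6 as reported, 3 at 2-fold, 5 to 8 under the other planned settings, 10 by junction reads and 9 by all isoforms in the span. Genes with lower RNA numbered 3 as reported, 0 by junction reads and 1 by all isoforms in the span. Stx1a, -1.48 by RefSeq depth, turned to 0.03 by gene FPKM, 0.44 by junction reads and 0.43 by all isoforms in the span. Stx6 turned to 0.25 and 0.05 by the last pair of measures, and Napa, 0.82 by RefSeq depth, to -0.30 by gene FPKM. Snap25 had 0.44 by gene FPKM and Vamp1 had 0.55 when scaled to the median gene, both short of 1.5-fold. The other pathway genes changed from 7 higher and 5 lower to 15 and 1 by junction reads. The causes were not tested beyond the RefSeq shares given beside the genes. The median share of pyrimidine triplets upstream was 34.7% over 100 nucleotides, beside 21.4% of all exons, and 24.6% over 250. No paired analysis was possible because each condition has 1 library. With 1 library per condition, variation between cultures is not measured, and exons or genes with few reads, such as those of Rab3b, Cadps and Stxbp2, are limited by depth.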
